A study of Arabidopsis thaliana with 30 samples.

Results

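The general phenylpropanoid pathway was followed through 9 genes, chosen by enzyme family and matched by locus identifier; no measured value enters the rule, which was set with earlier results of these data known. They are PAL1 (AT2G37040), PAL2 (AT3G53260), PAL3 (AT5G04230) and PAL4 (AT3G10340), C4H (AT2G30490), and 4CL1 (AT1G51680), 4CL2 (AT3G21240), 4CL3 (AT1G65060) and 4CL5 (AT3G21230). All 9 were found among the 34212 loci of the table, and all 9 were among the 19980 genes that passed the filter on low counts. RNA-seq was done on whole rosettes of Arabidopsis thaliana plants aged 3 weeks, of 3 genotypes. These were uvr8-2, a mutant in the UV-B photoreceptor gene UVR8, cry1cry2, a double mutant in the blue and UV-A receptor genes CRY1 and CRY2, and the wild type Ler. Plants raised in growth rooms without UV-A spent 6 h outdoors in sunlight under 1 of 5 long-pass filters. In the order in which they let more of the short wavelengths through, the filters are named blue0, UV0, UVA350, UVA and UVA+B. Each of the 15 genotype by filter groups held 2 libraries, and each library pooled RNA from 2 of 4 field blocks with 5 rosettes a block. The p-values below therefore measure the spread between pools of 1 field day.

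Phenylalanine ammonia-lyase (PAL) removes ammonia from phenylalanine and gives cinnamate, cinnamate 4-hydroxylase (C4H) is the cytochrome P450 that turns cinnamate into p-coumarate, and 4-coumarate:CoA ligase (4CL) activates p-coumarate as its CoA ester. That ester is shared by the flavonoid branch, which makes the UV-absorbing flavonols of leaves, and by the branch to sinapate esters and lignin monomers. In Arabidopsis, PAL1 and PAL2 are the isoforms best known from flavonoid synthesis, PAL4 is known from stem lignin, 4CL1 and 4CL2 are mostly tied to lignin, and 4CL3 to flavonoids. C4H is a single gene.

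Library totals ran from 12109222 to 22865826 estimated counts. Levels are in CPM, estimated counts scaled to a common library total with TMM factors. Called means past a threshold of 0.05 on the Benjamini-Hochberg adjusted p of an edgeR quasi-likelihood model of all 30 libraries, and changes are log2 values ± standard error. The 2 libraries of each group differed by more than sampling noise. Chloroplast genes took over 1% of counts in 3 libraries, each replicate 2 of its group (cry1cry2 under UVA and under UVA+B, and uvr8-2 under blue0). The 5 rosette leaf markers summed to 18590 to 38020 CPM, while root markers summed to 26.9 to 43.1 CPM and floral markers to 1.22 to 6.84 CPM. The floral identity genes AP3 and PI reached at most 0.634 CPM and the root hair genes EXPA7 and COBL9 at most 0.164 CPM, each with 0 in some library. The other members of these lists were above 0 in every library. In the root list SCR had 25.9 to 41.7 CPM, most of the root sum, and NRT2.1 0.716 to 2.07 CPM. In the floral list AG had 0.448 to 3.14 CPM and SEP3 0.576 to 3.49 CPM. In whole rosettes, fewer cells of a type and less RNA per cell cannot be told apart. The mutated genes were still transcribed: UVR8 averaged 143 ± 2.00 CPM in uvr8-2 rosettes, against 114 ± 1.90 CPM in those of Ler, under UVA+B. CRY1 averaged 46.9 ± 0.290 CPM in cry1cry2 and 83.7 ± 9.30 CPM in Ler (SD, n = 2 each). CRY2 averaged 49.9 ± 14.0 CPM in cry1cry2 and 87.4 ± 10 CPM in Ler under that filter.

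Within each family the genes differ in sequence, most of all 4CL3. The coding sequences of PAL1 and PAL2 were identical at 82.6% of aligned positions and those of PAL3 and PAL4 at 76.6%, against 65.8% to 71.8% between these pairs. In the 4CL family, 4CL1 and 4CL2 shared 79.4%, and 4CL3 shared 62.6% to 64.2% with its relatives. The 300 bases before the annotated gene start are shown for the 4 genes that moved together in the comparisons below (PAL1, PAL2, C4H and 4CL3) and for 4CL2, which was called in none of them. They come from the RefSeq TAIR10.1 reference, which is the Columbia strain and not Ler, and each runs 5′ to 3′ on the strand of its gene. The windows lie at chr2:15560756-15561055 on the minus strand (PAL1), chr3:19747115-19747414 on the minus strand (PAL2), chr2:12996013-12996312 on the minus strand (C4H), chr1:24171636-24171935 on the minus strand (4CL3) and chr3:7457405-7457704 on the minus strand (4CL2). Capitals mark exact matches to a G-box, spelled CACGTG, or to the core of it, ACGT, known as binding sites of bZIP factors such as HY5, and to the AC elements, known as MYB sites of phenylpropanoid promoters.
PAL1: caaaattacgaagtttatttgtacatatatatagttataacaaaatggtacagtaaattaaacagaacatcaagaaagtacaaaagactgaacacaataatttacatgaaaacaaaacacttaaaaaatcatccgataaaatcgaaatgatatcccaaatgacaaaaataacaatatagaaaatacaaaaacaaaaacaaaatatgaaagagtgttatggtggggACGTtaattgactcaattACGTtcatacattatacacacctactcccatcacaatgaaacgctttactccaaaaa
PAL2: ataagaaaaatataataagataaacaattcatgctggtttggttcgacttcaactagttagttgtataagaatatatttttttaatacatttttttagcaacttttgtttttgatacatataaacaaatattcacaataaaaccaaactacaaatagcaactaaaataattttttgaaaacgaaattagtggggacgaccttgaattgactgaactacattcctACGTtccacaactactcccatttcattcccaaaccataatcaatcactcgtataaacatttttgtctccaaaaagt
C4H: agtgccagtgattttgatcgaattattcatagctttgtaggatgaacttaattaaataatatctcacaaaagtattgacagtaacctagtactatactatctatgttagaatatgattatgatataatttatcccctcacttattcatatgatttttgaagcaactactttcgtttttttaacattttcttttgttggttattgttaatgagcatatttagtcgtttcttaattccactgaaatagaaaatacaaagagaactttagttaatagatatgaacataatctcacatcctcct
4CL3: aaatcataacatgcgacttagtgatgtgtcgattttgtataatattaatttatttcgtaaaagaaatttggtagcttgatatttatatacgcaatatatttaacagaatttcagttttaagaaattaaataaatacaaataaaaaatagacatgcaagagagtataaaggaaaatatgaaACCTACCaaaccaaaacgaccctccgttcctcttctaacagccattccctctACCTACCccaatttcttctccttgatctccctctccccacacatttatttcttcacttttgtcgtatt
4CL2: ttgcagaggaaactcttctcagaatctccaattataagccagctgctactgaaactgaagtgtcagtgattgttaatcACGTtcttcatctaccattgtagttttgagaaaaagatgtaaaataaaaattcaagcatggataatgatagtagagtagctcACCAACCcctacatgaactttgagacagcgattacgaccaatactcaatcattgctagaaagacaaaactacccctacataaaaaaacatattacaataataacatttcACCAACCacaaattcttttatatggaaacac
Both strands were searched. AC element I was searched as ACCTACC. The letters of AC element II were ACCAACC. For AC element III the letters ACCTAAC were used. The 4CL3 window held AC element I at bases 120 to 114 and 68 to 62 before the start, and 1.33% of 27443 windows of the same length in the reference held that element. In PAL1 the ACGT core lay at bases 75 to 72 and 57 to 54, and in PAL2 at bases 76 to 73. C4H held none of the motifs. The 4CL2 window held AC element II at bases 140 to 134 and 31 to 25, a match that 3.18% of all windows had, and 1 ACGT core. Taking the AC elements together, 2 of the 9 genes and 7.16% of all windows held at least 1 of them. Of the 9 genes, 7 had an ACGT core, against 49% of all windows, and only PAL4 had a full G-box (7.09% of all windows). The G-box contains the ACGT core, so its match is also counted there. A match describes the letters of the window only.

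By range, the 9 genes fell into a group of 4 that moved widely with the light, PAL1, PAL2, C4H and 4CL3, and a group of 5 with narrower ranges, PAL3, PAL4, 4CL1, 4CL2 and 4CL5. The second group was not flat throughout. In some comparisons below, 4CL1 and PAL4 were also called higher, with smaller changes, and the group means of 4CL1 ran close in pattern to those of the first group. Between the lowest and the highest of the 15 group means, 4CL3 ranged 57.3-fold, PAL1 37.5-fold, PAL2 30.0-fold and C4H 14.1-fold. The other ranges were 3.14-fold for PAL4, 2.58-fold for 4CL1, 1.92-fold for PAL3, 1.71-fold for 4CL5 and 1.33-fold for 4CL2. The highest group mean of PAL1, PAL2 and C4H was in cry1cry2 under UVA+B and that of 4CL3 in Ler under UVA+B. The lowest means of PAL1, C4H and 4CL3 were in cry1cry2 under blue0, and that of PAL2 in uvr8-2 under blue0.

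**Figure D1:**
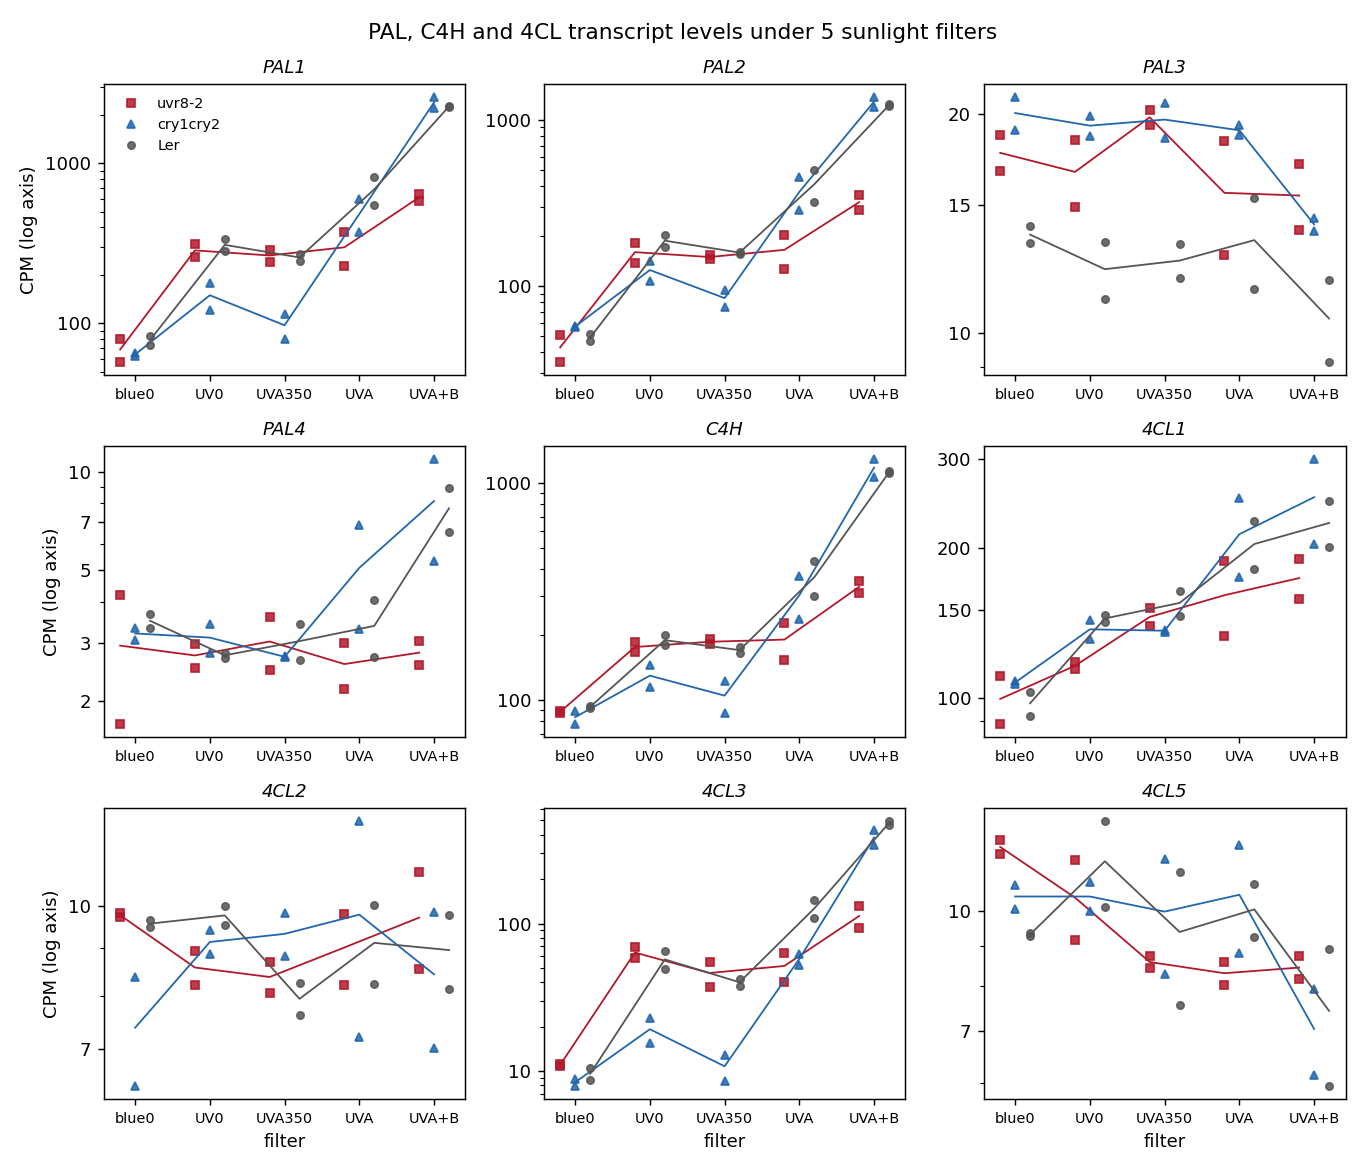
CPM of each of the 9 genes on log axes that differ between panels, under the 5 filters in uvr8-2 (squares), cry1cry2 (triangles) and Ler (circles); each point is 1 library and the lines join group means. PAL1, PAL2, C4H and 4CL3 climb steeply toward UVA+B in cry1cry2 and Ler and far less in uvr8-2, while 4CL2 stays between 6.38 and 12.4 CPM throughout.

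PAL1 had the highest level per coding length of the 4 PAL genes in each of the 15 groups. In uvr8-2, PAL1 had 80.3 and 57.4 CPM under blue0, 312 and 259 under UV0, 242 and 289 under UVA350, 371 and 227 under UVA and 640.1 and 585 under UVA+B. In cry1cry2, PAL1 had 63.0 and 65.1 CPM under blue0, 122 and 178 under UV0, 115 and 79.9 under UVA350, 595 and 369.8 under UVA and 2598 and 2204 under UVA+B. Ler rosettes had 83.6 and 73.9 CPM under blue0, 284 and 335 under UV0, 271 and 245 under UVA350, 826 and 549.9 under UVA and 2255 and 2275 under UVA+B. The libraries of uvr8-2 and Ler overlapped under UV0, UVA350 and blue0 and lay apart under UVA and UVA+B. In cry1cry2, PAL1 lay below Ler under blue0, UV0 and UVA350, overlapped it under UVA and spanned it under UVA+B. The order of group means began with cry1cry2 and Ler under UVA+B, whose libraries overlapped, followed at a distance by Ler under UVA and uvr8-2 under UVA+B, which overlapped each other.

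PAL2, the nearest relative of PAL1, had 50.9 and 35.0 CPM under blue0, 183 and 138 under UV0, 146 and 154 under UVA350, 204 and 127 under UVA and 352 and 289 under UVA+B in uvr8-2. In cry1cry2, PAL2 stood at 56.9 and 57.7 CPM under blue0, 108 and 142 under UV0, 94.9 and 74.9 under UVA350, 451 and 288 under UVA and 1375 and 1199 under UVA+B. The Ler libraries gave 51.5 and 46.7 CPM under blue0, 172 and 204 under UV0, 161 and 157 under UVA350, 499 and 321 under UVA and 1239 and 1213 under UVA+B for PAL2. Under UVA+B all uvr8-2 libraries lay below all Ler libraries, and the cry1cry2 libraries overlapped those of Ler. Under UVA cry1cry2 again overlapped Ler, and uvr8-2 lay below Ler.

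PAL3, which in Arabidopsis is regarded as a minor isoform, had 16.7 and 18.7 CPM under blue0, 14.9 and 18.4 under UV0, 19.3 and 20.3 under UVA350, 12.8 and 18.4 under UVA and 13.9 and 17.1 under UVA+B in uvr8-2. For cry1cry2, the PAL3 values were 19.0 and 21.1 CPM under blue0, 18.7 and 19.9 under UV0, 18.6 and 20.8 under UVA350, 19.3 and 18.7 under UVA and 13.8 and 14.4 under UVA+B. In Ler, PAL3 had 14.0 and 13.3 CPM under blue0, 11.2 and 13.4 under UV0, 11.9 and 13.3 under UVA350, 11.5 and 15.3 under UVA and 9.13 and 11.8 under UVA+B. In contrast to PAL1 and PAL2, the lowest group mean of PAL3 was that of Ler under UVA+B and its highest that of cry1cry2 under blue0. Under each filter the cry1cry2 libraries lay above the Ler libraries, and the uvr8-2 libraries did so under each filter except UVA. PAL4 had the lowest level per coding length of the 9 genes, with group means of 1.22 to 3.83 CPM per coding kb, and its lowest library held 29.0 estimated counts. In uvr8-2, PAL4 had 4.20 and 1.70 CPM under blue0, 2.52 and 2.98 under UV0, 3.59 and 2.47 under UVA350, 3.01 and 2.17 under UVA and 3.04 and 2.57 under UVA+B. In cry1cry2 the PAL4 values were 3.07 and 3.35 CPM under blue0, 3.43 and 2.80 under UV0, 2.74 and 2.71 under UVA350, 6.85 and 3.32 under UVA and 10.9 and 5.33 under UVA+B, and in Ler they were 3.67 and 3.34 CPM under blue0, 2.71 and 2.80 under UV0, 3.42 and 2.66 under UVA350, 4.05 and 2.72 under UVA and 6.56 and 8.89 under UVA+B. High values of PAL4 were seen under UVA+B in cry1cry2 and Ler, and in 1 cry1cry2 library under UVA, while all other libraries stayed at 4.20 CPM or below.

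C4H, the only gene of its step, had 89.1 and 87.5 CPM under blue0, 184 and 167 under UV0, 190.2 and 181 under UVA350, 226 and 153 under UVA and 352 and 313 under UVA+B in uvr8-2. In cry1cry2 the C4H values were 77.5 and 89.3 CPM under blue0, 115 and 145 under UV0, 123 and 87.0 under UVA350, 372 and 237 under UVA and 1291 and 1065 under UVA+B. Ler had 91.9 and 94.2 CPM under blue0, 179 and 199 under UV0, 175 and 164 under UVA350, 435 and 300.4 under UVA and 1107 and 1132 under UVA+B. The order of the groups was close to that of PAL1: cry1cry2 and Ler under UVA+B overlapped at the top, and the 3 blue0 groups stood at the bottom within 77.5 to 94.2 CPM.

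Among the ligases, 4CL3 moved most. In uvr8-2, 4CL3 had 11.2 and 10.8 CPM under blue0, 69.0 and 58.2 under UV0, 37.2 and 55.2 under UVA350, 63.2 and 40.0 under UVA and 132 and 93.6 under UVA+B. In cry1cry2, 4CL3 had 7.89 and 8.88 CPM under blue0, 15.5 and 22.9 under UV0, 12.9 and 8.62 under UVA350, 62.4 and 52.7 under UVA and 428 and 339.8 under UVA+B. Ler gave 8.66 and 10.4 CPM under blue0, 49.0 and 65.3 under UV0, 37.9 and 42.1 under UVA350, 144 and 109.7 under UVA and 465 and 497 under UVA+B. Under UV0 and UVA350 the cry1cry2 libraries lay below all libraries of uvr8-2 and Ler, and under UVA+B the order was Ler, cry1cry2, uvr8-2 without overlap. 4CL1 ran through a much smaller range. In uvr8-2, 4CL1 had 111 and 88.8 CPM under blue0, 118 and 114 under UV0, 151 and 139 under UVA350, 188 and 133 under UVA and 189 and 158 under UVA+B. In cry1cry2 it had 108 and 107 CPM under blue0, 143 and 131 under UV0, 137 and 136 under UVA350, 251 and 174 under UVA and 301 and 204 under UVA+B, and in Ler 103 and 92.3 CPM under blue0, 142 and 147 under UV0, 164 and 146 under UVA350, 226 and 181 under UVA and 248 and 200.3 under UVA+B. The 4CL1 means climbed with each filter in uvr8-2 and Ler, and neighbouring filters lay apart at the blue step in both, at UVA350 against UV0 in uvr8-2 and at UVA against UVA350 in Ler, and overlapped at the other 4 of these 8 steps. 4CL5 and 4CL2, which have consecutive locus identifiers on chromosome 3, stayed low. For 4CL5, uvr8-2 had 11.8 and 12.3 CPM under blue0, 9.16 and 11.6 under UV0, 8.43 and 8.75 under UVA350, 8.02 and 8.60 under UVA and 8.17 and 8.73 under UVA+B. In cry1cry2, 4CL5 had 10.1 and 10.8 CPM under blue0, 10.9 and 9.98 under UV0, 11.6 and 8.29 under UVA350, 12.1 and 8.82 under UVA and 7.94 and 6.15 under UVA+B, and in Ler 9.27 and 9.37 CPM under blue0, 13.0 and 10.1 under UV0, 11.2 and 7.56 under UVA350, 9.26 and 10.8 under UVA and 8.92 and 5.95 under UVA+B. The lowest 4CL5 library was Ler under UVA+B. 4CL2 lay between 6.38 and 12.4 CPM with a median of 8.91 CPM over all libraries, and no group of it lay apart from its neighbour in the order of means.

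The UV-B step, UVA+B against UVA, asks what the UV-B of sunlight adds. PAL1, PAL2, C4H and 4CL3 were higher under UVA+B in cry1cry2 and in Ler, and none of the 9 genes was called in uvr8-2. In cry1cry2, 4 of 9 genes were called higher, where 6.72% of all genes tested were called higher and 7.29% lower. In Ler the 4 called higher stand beside 2.23% of all genes called higher and 0.811% called lower. In uvr8-2 edgeR called 0 of 9 and 0% of all genes, with 4 of 9 higher at an unadjusted p under 0.05 and 3 called by DESeq2 (PAL1, PAL2 and 4CL3). Here and below, shares of all genes are those of edgeR after adjustment. No share was computed for DESeq2 or for an unadjusted p, so those counts have no background beside them. In cry1cry2, 4CL3 rose 6.67-fold (2.74 ± 0.26, edgeR adjusted p = 1.23e-06) and PAL1 rose 4.98-fold (2.32 ± 0.27, adjusted p = 1.21e-05). C4H and PAL2 rose 3.87-fold and 3.48-fold there. In Ler, 4CL3 rose 3.79-fold (1.92 ± 0.25, edgeR adjusted p = 0.000108), PAL1 3.29-fold, C4H 3.04-fold and PAL2 2.99-fold. The fitted ratios in uvr8-2 were 2.18 for 4CL3, 2.05 for PAL1, 1.93 for PAL2 and 1.75 for C4H, with both UVA+B libraries above both UVA libraries for each of them. PAL4 had 2.28 in Ler (adjusted p = 0.0981) and was not called, and 4CL1, 4CL2, 4CL5 and PAL3 were not called in any genotype. Without the 3 libraries rich in chloroplast counts, none of which is Ler, PAL4 was called in Ler (1.19, edgeR adjusted p = 0.00741).

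The size of the UV-B step was also set against Ler directly. The difference of log2 changes, uvr8-2 minus Ler, was -0.80 ± 0.30 for C4H (95% interval -1.41 to -0.19), -0.80 ± 0.35 for 4CL3 (-1.52 to -0.08), -0.68 ± 0.37 for PAL1 (-1.45 to 0.08) and -0.63 ± 0.35 for PAL2 (-1.35 to 0.10). For cry1cry2 minus Ler it was 0.81 ± 0.34 for 4CL3 (0.10 to 1.53) and 0.60 ± 0.37 for PAL1 (-0.17 to 1.36). Of all genes edgeR called 0% higher and 0.00501% lower in the first of these 2 differences and 0% either way in the second. Neither edgeR nor DESeq2 called any of the 9 genes in them, and at an unadjusted p under 0.05 edgeR had 2 lower in the first and 1 higher in the second. The log2 differences of the remaining genes, none called, were 0.34 for PAL3, -1.08 for PAL4, -0.03 for 4CL1, 0.13 for 4CL2 and 0.46 for 4CL5 in uvr8-2 minus Ler, and 0.22 for PAL2, 0.35 for C4H, -0.08 for PAL3, -0.52 for PAL4, 0.11 for 4CL1, -0.19 for 4CL2 and -0.14 for 4CL5 in cry1cry2 minus Ler. Both differences use the same Ler libraries. Leaving out Ler UVA replicate 2, the lower of the Ler pair for PAL1, PAL2, C4H and 4CL3, ended the call of PAL2 in Ler (1.30, adjusted p = 0.0502); in this and all such fits the library left alone in its group is assumed to vary like the other groups. Leaf and epidermis markers moved with this step too: 3 of 5 leaf markers and 2 of 4 epidermis markers were lower in cry1cry2, where their sums were 27590 to 32300 and 337.5 to 374.9 CPM under UVA+B, against 33970 to 35790 and 427.6 to 456.6 CPM under UVA. In Ler 1 of 5 leaf markers and 0 of 4 epidermis markers were called lower. Their part in the result was not tested.

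**Figure D2:**
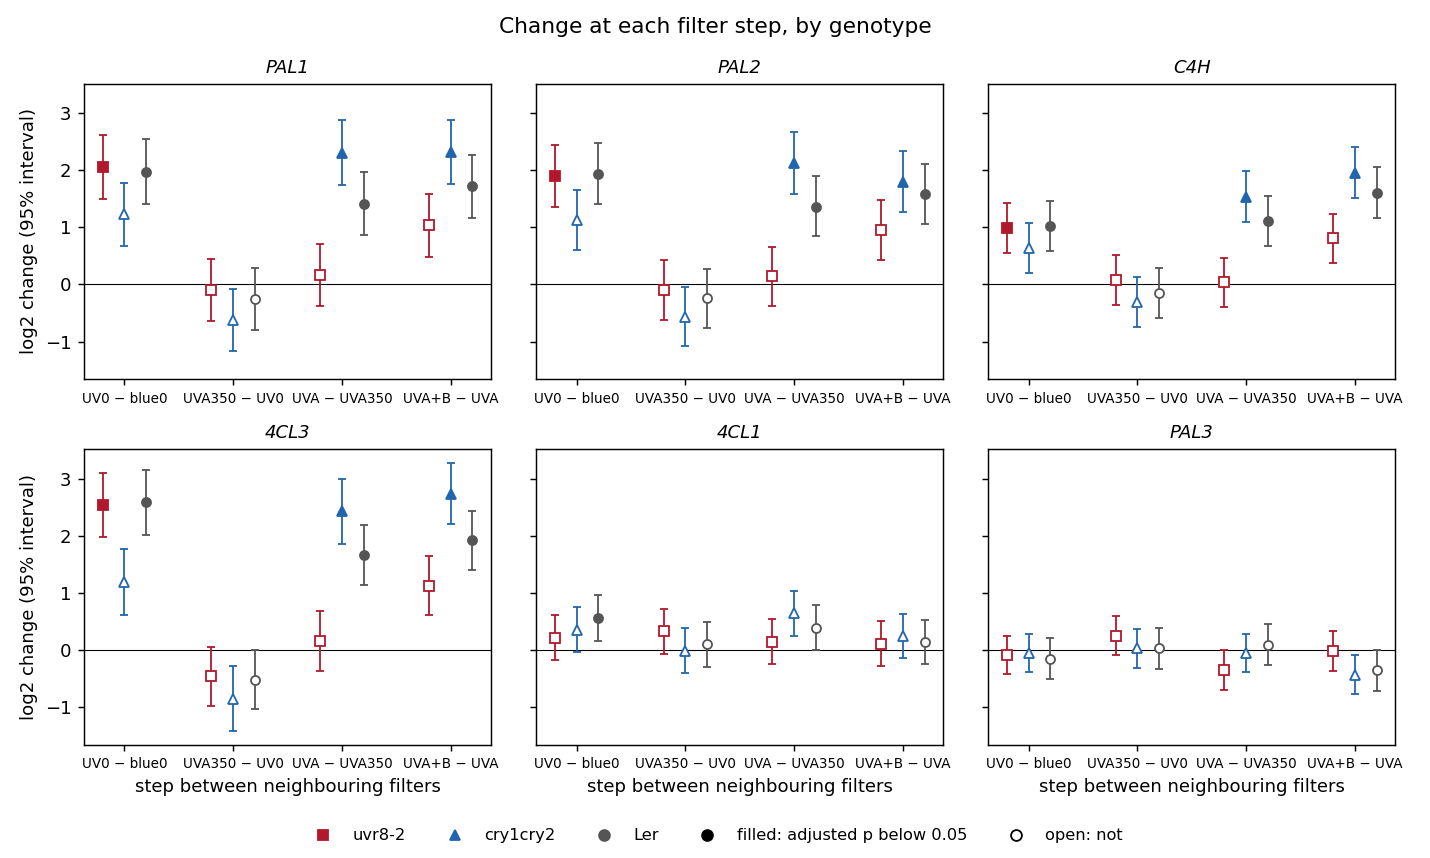
Log2 change at each step between neighbouring filters with its 95% interval, for 6 genes in uvr8-2, cry1cry2 and Ler; filled symbols have an edgeR adjusted p below 0.05. At the UVA − UVA350 and UVA+B − UVA steps the cry1cry2 and Ler symbols of PAL1, PAL2, C4H and 4CL3 are filled and those of uvr8-2 are open, and at the UV0 − blue0 step the open symbols of these 4 genes are those of cry1cry2.

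The short UV-A step, UVA against UVA350, asks what the shorter UV-A adds. PAL1, PAL2, C4H and 4CL3 were called higher in cry1cry2 (2.19% of all genes higher, 1.35% lower) and in Ler (0.185% higher, 0.015% lower). None was called in uvr8-2, where 0% of all genes were called, 0 of 9 were called by DESeq2, and PAL3 alone, the lower one, had an unadjusted p under 0.05. In cry1cry2 the rise was 5.39-fold for 4CL3 (2.43 ± 0.27, edgeR adjusted p = 3.14e-05), 4.96-fold for PAL1 (2.31 ± 0.27), 4.35-fold for PAL2 and 2.90-fold for C4H. 4CL1 had 1.56 (edgeR adjusted p = 0.0657) and was called by DESeq2 there. In Ler the rise was 3.17-fold for 4CL3 (1.66 ± 0.25, edgeR adjusted p = 0.00573), 2.67-fold for PAL1 (1.41 ± 0.26, adjusted p = 0.0214), 2.57-fold for PAL2 and 2.17-fold for C4H. In uvr8-2 the 4 ratios lay between 1.02 and 1.12, with the libraries of the filters overlapping. The log2 values in uvr8-2, cry1cry2 and Ler, none called, were -0.35, -0.05 and 0.09 for PAL3, -0.22, 0.90 and 0.16 for PAL4, 0.14, 0.64 and 0.39 for 4CL1, 0.11, 0.07 and 0.20 for 4CL2 and -0.05, 0.08 and 0.10 for 4CL5. Without the libraries rich in chloroplast counts, PAL4 (1.33, edgeR adjusted p = 0.0128) and 4CL1 (0.88, adjusted p = 0.00998) were called in cry1cry2, with 1 library left under UVA. This step and the UV-B step share the UVA libraries, with opposite sign.

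Set against Ler, the short UV-A step of uvr8-2 differed by -1.51 ± 0.35 for 4CL3 on the log2 scale (95% interval -2.24 to -0.77; adjusted p = 0.855), and the differences were -1.25 ± 0.37 for PAL1 (-2.01 to -0.48), -1.22 ± 0.35 for PAL2 (-1.95 to -0.49) and -1.08 ± 0.30 for C4H (-1.70 to -0.47). The 4 intervals lie below 0, yet edgeR called 0 of 9 and 0% of all genes either way, with 4 members lower at an unadjusted p under 0.05. DESeq2 alone called 4CL3. In cry1cry2 minus Ler the differences were 0.90 ± 0.37 for PAL1 (0.13 to 1.66), 0.77 ± 0.36 for 4CL3 (0.01 to 1.52), 0.76 ± 0.35 for PAL2 (0.03 to 1.49) and 0.42 ± 0.30 for C4H (-0.19 to 1.04), with 0 members called by either tool, 0.015% of all genes called higher and 0% lower, and 3 members higher before adjustment. For the other 5 genes the differences were -0.44 for PAL3, -0.38 for PAL4, -0.25 for 4CL1, -0.09 for 4CL2 and -0.15 for 4CL5 in uvr8-2 minus Ler, and -0.14 for PAL3, 0.75 for PAL4, 0.25 for 4CL1, -0.13 for 4CL2 and -0.02 for 4CL5 in cry1cry2 minus Ler. The calls in Ler were lost in most fits without 1 library. Without Ler UVA replicate 1, the higher library of that pair, without Ler UVA350 replicate 1 or without Ler UVA350 replicate 2, all 4 calls ended. The change of 4CL3 was then 1.45, 1.59 and 1.74 with edgeR adjusted p = 0.16, 0.168 and 0.16, and that of PAL1 1.09, 1.49 and 1.34 with adjusted p = 0.481, 0.267 and 0.392. Only 1 leaf marker of 5, in cry1cry2, was called at this step.

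The long UV-A step, UVA350 against UV0, raised none of the 9 genes. In each of uvr8-2, cry1cry2 and Ler, 0 of 9 were called by edgeR and by DESeq2, where edgeR called 0.025%, 0% and 0% of all genes higher and 0.025%, 0% and 0% lower. At an unadjusted p under 0.05 the counts were 0 in uvr8-2, 3 lower in cry1cry2 and 0 in Ler. The log2 values of 4CL3 were -0.46 ± 0.25 in uvr8-2, -0.85 ± 0.28 in cry1cry2 and -0.52 ± 0.25 in Ler. Log2 values in uvr8-2, cry1cry2 and Ler were -0.11, -0.62 and -0.26 for PAL1, -0.10, -0.56 and -0.24 for PAL2 and 0.08, -0.31 and -0.15 for C4H. The same order gives 0.25, 0.03 and 0.03 for PAL3, 0.14, -0.19 and 0.14 for PAL4, 0.32, -0.01 and 0.10 for 4CL1, -0.03, 0.03 and -0.30 for 4CL2 and -0.27, -0.07 and -0.29 for 4CL5. Averaged over the 3 genotypes, 4CL3 was 0.655-fold under UVA350 relative to UV0 (-0.61 ± 0.15), with an edgeR adjusted p just under the 0.05 threshold and 0.37% of all genes called lower. DESeq2 called it too, but it was lost in 10 of 12 fits that left out 1 library of the step, and with DESeq2's size factors in edgeR, unrounded counts, no filter or without the 3 libraries rich in chloroplast counts. PAL1 and PAL2 had -0.33 and -0.30 in the same average and were not called.

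The blue step, UV0 against blue0, asks what blue light adds when UV is absent. PAL1, PAL2, C4H and 4CL3 were called higher in uvr8-2 (8.38% of all genes higher, 6.86% lower) and in Ler (9.7% higher, 8.43% lower), and 4CL1 was added in Ler. In cry1cry2, edgeR called 0 of 9 (0.16% of all genes higher, 0.015% lower), with 4 higher at an unadjusted p under 0.05 and 3 called by DESeq2 (PAL1, PAL2 and 4CL3). In uvr8-2, 4CL3 rose 5.78-fold (2.53 ± 0.27, edgeR adjusted p = 3.74e-06), PAL1 4.15-fold, PAL2 3.73-fold and C4H 1.99-fold. In Ler, 4CL3 rose 6.00-fold (2.58 ± 0.27, edgeR adjusted p = 3.4e-06), PAL1 3.93-fold, PAL2 3.83-fold, C4H 2.03-fold and 4CL1 1.48-fold. The fitted ratios in cry1cry2 were 2.34 for PAL1 (adjusted p = 0.0724), 2.29 for 4CL3 (0.105), 2.19 for PAL2 (0.0884) and 1.55 for C4H (0.408), again with no overlap between the filters for these 4 genes. The uncalled log2 values of the rest were -0.09, -0.06 and -0.15 for PAL3, -0.14, -0.05 and -0.35 for PAL4, -0.19, 0.30 and 0.03 for 4CL2 and -0.22, 0.00 and 0.30 for 4CL5, each in the order uvr8-2, cry1cry2 and Ler, and 4CL1 had 0.22 in uvr8-2 and 0.35 in cry1cry2.

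The blue step of 4CL3 differed from that of Ler by -1.39 ± 0.39 in cry1cry2 (95% interval -2.19 to -0.58, edgeR adjusted p = 0.119), which was not called, though DESeq2 called it. The differences of PAL2 (-0.81 ± 0.35), PAL1 (-0.75 ± 0.37) and C4H (-0.39 ± 0.30) were not called by either tool, and edgeR had 2 members lower at an unadjusted p under 0.05, beside 0.44% of all genes called lower and 0.105% higher. For uvr8-2 minus Ler the differences of these 4 genes lay between -0.05 and 0.08, with intervals such as -0.69 to 0.85 for PAL1, 0 members and 0% of all genes called, none by DESeq2 and 0 members at an unadjusted p under 0.05. The blue step differences of the other 5 genes were 0.06 for PAL3, 0.21 for PAL4, -0.34 for 4CL1, -0.22 for 4CL2 and -0.52 for 4CL5 in uvr8-2 minus Ler, and 0.09 for PAL3, 0.30 for PAL4, -0.21 for 4CL1, 0.27 for 4CL2 and -0.31 for 4CL5 in cry1cry2 minus Ler. The call of 4CL1 in Ler ended without any 1 of the 4 libraries of the step, with 0.50 (adjusted p = 0.208) without blue0 replicate 2 and 0.65 (adjusted p = 0.11) without blue0 replicate 1. Leaf markers moved with this step: 3 of 5 were higher and 2 lower in uvr8-2, and 3 were higher in Ler, where they summed to 27230 to 28000 CPM under UV0, against 18590 to 20900 CPM under blue0. In cry1cry2 0 of 5 were called. Of 4 epidermis markers 1 was lower in uvr8-2 and 1 in Ler, and the part of these markers in the result was not tested.

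Averaged over the 3 genotypes, the UV-B, short UV-A and blue steps each held PAL1, PAL2, C4H, 4CL3 and 1 more gene. For UV-B, 5 of 9 were called higher, beside 7.64% of all genes higher and 7.23% lower: 4CL3 3.81-fold, PAL1 3.23-fold, C4H 2.74-fold, PAL2 2.72-fold and PAL4 1.58-fold (0.66 ± 0.22, edgeR adjusted p = 0.0495). For short UV-A the fifth was 4CL1 at 1.31-fold (0.39 ± 0.11, edgeR adjusted p = 0.0457), beside 2.29% of all genes higher and 1.77% lower. For blue it was again 4CL1, at 1.30-fold (0.38 ± 0.11, edgeR adjusted p = 0.0125), beside 14.8% higher and 14.2% lower. The call of PAL4 was lost in 8 of 12 fits without 1 library of the step and that of 4CL1 for short UV-A in 9 of 12, while the blue step kept all 5 in each. An average over genotypes does not test whether they differ.

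Total UV, UVA+B against UV0, spans the 3 UV steps. Most of the pathway was higher in cry1cry2 and Ler, and C4H alone in uvr8-2. In uvr8-2, C4H rose 1.89-fold (0.92 ± 0.21, edgeR adjusted p = 0.0457), where 0.681% of all genes were called higher and 0.0901% lower. PAL1 (2.14, adjusted p = 0.0563), PAL2 (2.00, 0.0726) and 4CL3 (1.77, 0.149) missed the threshold in edgeR, while DESeq2 called all 4. In cry1cry2, 6 of 9 were called higher and 2 lower, beside 16.3% and 17.8% of all genes. In Ler, 6 were called higher and 1 lower, beside 9.47% and 8.3% of all genes. The rises in cry1cry2 were 19.9-fold for 4CL3 (4.32 ± 0.28, edgeR adjusted p = 1.5e-09), 16.0-fold for PAL1, 10.3-fold for PAL2, 9.09-fold for C4H, 2.61-fold for PAL4 and 1.84-fold for 4CL1. Those in Ler were 8.39-fold for 4CL3 (3.07 ± 0.26, edgeR adjusted p = 1.58e-07), 7.32-fold for PAL1, 6.52-fold for PAL2, 5.93-fold for C4H, 2.81-fold for PAL4 and 1.55-fold for 4CL1. 4CL5 was lower in cry1cry2 (0.677-fold) and in Ler (0.644-fold), and PAL3 in cry1cry2 (0.731-fold). DESeq2 called neither gene. 4CL2 was not called, with 0.18 in uvr8-2, -0.12 in cry1cry2 and -0.12 in Ler. The remaining uncalled log2 values were -0.10 for PAL3, 0.04 for PAL4, 0.58 for 4CL1 and -0.29 for 4CL5 in uvr8-2, and -0.23 for PAL3 in Ler. Of the markers, 2 of 5 leaf genes were higher and 2 lower in cry1cry2, and 1 was higher in Ler. The leaf sums were 27590 to 32300 CPM under UVA+B and 25870 to 27540 CPM under UV0 in cry1cry2, and 29410 to 30930 CPM under UVA+B and 27230 to 28000 CPM under UV0 in Ler. In cry1cry2, 1 of the 2 floral markers that passed the filter was lower, with list sums of 3.70 to 4.41 CPM under UVA+B and 4.73 to 6.84 CPM under UV0, and 1 of 4 epidermis markers, with 337.5 to 374.9 CPM under UVA+B and 386.9 to 444.1 CPM under UV0. In Ler, 1 of the same 2 floral markers was lower, with 1.22 to 2.21 CPM under UVA+B and 2.74 to 4.26 CPM under UV0, and 1 of 7 xylem markers was higher, with 104.5 to 125.5 CPM under UVA+B and 96.8 to 98.2 CPM under UV0. In uvr8-2 0 of the tested markers were called, and the part of the markers was not tested.

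The smaller of these calls were not kept in every fit without 1 library. C4H in uvr8-2 lost its call without any 1 of the 4 libraries of the comparison (for instance 0.85, adjusted p = 0.178, without UV0 replicate 2). PAL4 had 1.25 (adjusted p = 0.123) in Ler without UVA+B replicate 2, its highest Ler library, and 0.78 (0.182) in cry1cry2 without UVA+B replicate 1, its highest library of all. 4CL1 had 0.47 (0.159) in Ler and 0.57 (0.0513) in cry1cry2 without UVA+B replicate 1 of each genotype. 4CL5 had -0.37 (0.468) in Ler and -0.38 (0.318) in cry1cry2 without UVA+B replicate 2 of each genotype, its lowest libraries there. PAL3 in cry1cry2 lost its call without any 1 of its 4 libraries (for instance -0.39, 0.174, without UV0 replicate 2). The calls of PAL3 and 4CL5 in cry1cry2 also ended without the 3 libraries rich in chloroplast counts. Further libraries ended the calls of PAL4 (Ler UV0 replicates 1 and 2, cry1cry2 UV0 replicate 2), of 4CL1 (Ler UV0 replicates 1 and 2) and of 4CL5 (UV0 replicates 1 and 2 of both genotypes). The calls of PAL1, PAL2, C4H and 4CL3 in cry1cry2 and Ler were kept without each library in turn.

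The response to total UV was smaller in uvr8-2 than in Ler for the same 4 genes. The difference of log2 changes was -2.25 ± 0.35 for 4CL3 (95% interval -2.98 to -1.52, edgeR adjusted p = 0.003), -1.77 ± 0.37 for PAL1 (-2.54 to -1.0, adjusted p = 0.0269), -1.71 ± 0.35 for PAL2 (-2.44 to -0.97, adjusted p = 0.0248) and -1.65 ± 0.30 for C4H (-2.26 to -1.03, adjusted p = 0.00766). Of all genes, 0.556% were called lower and 0.11% higher in this difference, and DESeq2 called the same 4 members. PAL4 had -1.45 ± 0.56 (-2.62 to -0.29) and was not called. 4CL3 kept its call without each of the 8 libraries in turn. C4H lost it without Ler UV0 replicate 1 (-1.57, adjusted p = 0.0678), and PAL1 and PAL2 lost it in 7 of 8 such fits, in each except that without uvr8-2 UV0 replicate 2. In those 7 fits PAL1 had adjusted p = 0.0542 to 0.157. In cry1cry2 minus Ler, 4CL3 had 1.25 ± 0.35 (0.51 to 1.98) and PAL1 1.13 ± 0.37 (0.36 to 1.90). Of all genes 0.04% were called higher and 0.025% lower, edgeR called 0 of 9 members, with 3 higher before adjustment (p under 0.05), and only 4CL3 was called by DESeq2. The differences not given above were 0.12 for PAL3, -0.05 for 4CL1, 0.30 for 4CL2 and 0.34 for 4CL5 in uvr8-2 minus Ler, and 0.66 for PAL2, 0.62 for C4H, -0.22 for PAL3, -0.10 for PAL4, 0.24 for 4CL1, 0.00 for 4CL2 and 0.07 for 4CL5 in cry1cry2 minus Ler. Both differences share the Ler libraries.

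**Figure D3:**
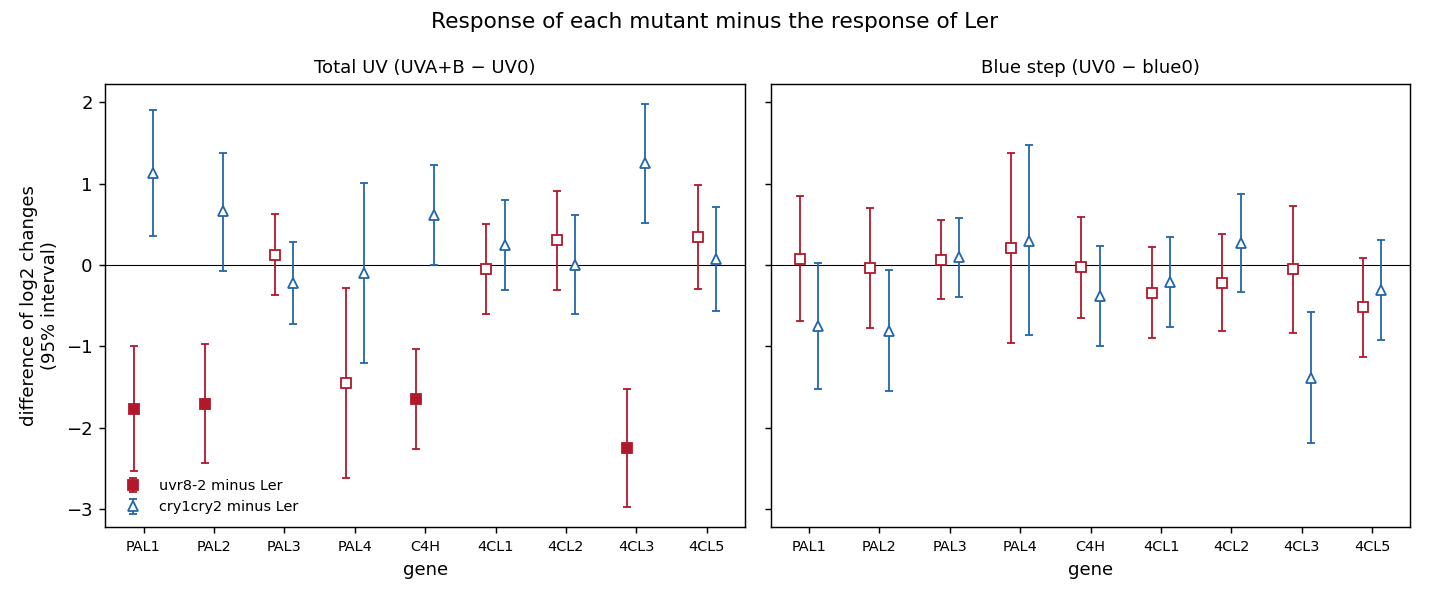
Difference of log2 changes between each mutant and Ler with its 95% interval, for total UV (left) and the blue step (right); filled symbols have an edgeR adjusted p below 0.05. The 4 filled symbols are PAL1, PAL2, C4H and 4CL3 of uvr8-2 for total UV, from -2.25 to -1.65, and the lowest symbol of the blue step is 4CL3 of cry1cry2 at -1.39.

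Compared with Ler under 1 filter, uvr8-2 differed mainly under UVA+B. There 4CL3 was 0.234-fold (-2.10 ± 0.25, edgeR adjusted p = 2.83e-05), PAL2 0.261-fold (-1.94 ± 0.25), PAL1 0.270-fold (-1.89 ± 0.27), C4H 0.297-fold (-1.75 ± 0.21) and PAL4 0.363-fold, all lower in uvr8-2. PAL3 was higher, 1.47-fold (0.56 ± 0.17, edgeR adjusted p = 0.0331). The 5 called lower and 1 higher of 9 stand beside 8.4% of all genes lower and 6.79% higher. PAL3 lost its call without Ler UVA+B replicate 1 (0.39, adjusted p = 0.223), without either uvr8-2 library or without the libraries rich in chloroplast counts, and PAL4 without Ler UVA+B replicate 2 (-1.22, adjusted p = 0.133) or without either uvr8-2 library. Under UVA, PAL2 (0.404-fold, edgeR adjusted p = 0.0373) and 4CL3 (0.407-fold, 0.0395) were lower, where 0.15% of all genes were called lower and 0.0951% higher. PAL1 (0.434, 0.0616) and C4H (0.516, 0.0616) just missed the threshold, and DESeq2 called all 4. The 4CL3 call also ended without the libraries rich in chloroplast counts. Both edgeR calls ended without any 1 of the 4 UVA libraries: without Ler replicate 1 the values were -0.96 for PAL2 and -1.09 for 4CL3, and without uvr8-2 replicate 2 they were -1.01 and -1.01. Under UVA350, UV0 and blue0, 0 of 9 were called by edgeR or DESeq2, beside 0%, 0.0851% and 0% of all genes lower and 0.01%, 0.0501% and 0% higher, and PAL3 alone had an unadjusted p under 0.05 under each of these filters. Over blue0, UV0 and UVA350 the log2 differences were -0.19 to 0.04 for PAL1, -0.23 to -0.09 for PAL2, -0.11 to 0.13 for C4H and 0.15 to 0.21 for 4CL3. Over all 5 filters those of the genes not called were -0.37 to 0.03 for 4CL1, -0.19 to 0.11 for 4CL2 and -0.27 to 0.37 for 4CL5, while PAL4 had -0.38 to -0.01 under the 4 filters other than UVA+B. Under UVA+B, 2 of 5 leaf markers were higher in uvr8-2, with sums of 35580 to 37410 CPM against 29410 to 30930 CPM in Ler. Both floral markers that passed the filter were higher too, with list sums of 3.47 to 5.45 CPM in uvr8-2 and 1.22 to 2.21 CPM in Ler. Their part in the result was not tested.

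In cry1cry2, 4CL3 was lower than in Ler under UV0, UVA350 and UVA, and no member was called under UVA+B or blue0. Under UVA350, 4CL3 was 0.267-fold (-1.90 ± 0.27, edgeR adjusted p = 0.000209), PAL1 0.377-fold (-1.41 ± 0.27, adjusted p = 0.00234), PAL2 0.532-fold and C4H 0.617-fold, while PAL3 was 1.56-fold higher. These 4 lower and 1 higher stand beside 4.82% of all genes lower and 4.78% higher. Under UV0, 4CL3 was 0.336-fold (-1.57 ± 0.26, edgeR adjusted p = 9e-04) and PAL1 0.485-fold (-1.05 ± 0.26, adjusted p = 0.0191), and PAL3 was 1.57-fold higher, beside 3.42% of all genes lower and 3.86% higher. Under UVA, 4CL3 alone was lower, 0.454-fold (-1.14 ± 0.25, edgeR adjusted p = 0.014), beside 1.47% of all genes lower and 1.91% higher. Under UVA+B the intervals of the log2 difference were -0.46 to 0.62 for PAL1, -0.44 to 0.58 for PAL2, -0.36 to 0.50 for C4H and -0.83 to 0.18 for 4CL3. Under UVA+B and under blue0, 0 of 9 were called by edgeR or DESeq2 (0.561% and 0.581% of all genes lower, 0.3% and 0.926% higher), and PAL3, the higher one, alone had an unadjusted p under 0.05.

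The calls of 4CL3 under UVA350 and UV0 and of PAL1 under UVA350 were kept without each library in turn. Without cry1cry2 UVA350 replicate 2, the lower library of that pair for PAL2 and C4H and the higher for PAL3, PAL2, C4H and PAL3 lost their calls under UVA350 (-0.77, -0.49 and 0.54, edgeR adjusted p = 0.172, 0.28 and 0.135), and they also lost them without Ler UVA350 replicate 1 or 2. PAL2 lost its call without cry1cry2 UVA350 replicate 1 as well. Under UV0, PAL1 lost its call without cry1cry2 replicate 1 (-0.80, adjusted p = 0.256) or Ler replicate 2 (-0.92, 0.152), and PAL3 lost it without any 1 of the 4 libraries (for instance 0.53, 0.189, without Ler replicate 1). Under UVA, the 4CL3 call ended without Ler replicate 1 (-0.93, adjusted p = 0.152) or without either cry1cry2 library, and without the 3 chloroplast-rich libraries together. The log2 differences of genes not called were -0.30 for PAL1, 0.22 for PAL2, -0.16 for C4H and -0.18 for 4CL3 under blue0, -0.59 for PAL2 and -0.54 for C4H under UV0 and -0.51 for PAL1, -0.15 for PAL2 and -0.27 for C4H under UVA, and over the 5 filters -0.16 to 0.59 for PAL4, -0.18 to 0.17 for 4CL1, -0.37 to 0.23 for 4CL2 and -0.14 to 0.16 for 4CL5. For PAL3 the sign was constant: it was higher in uvr8-2 than in Ler under 5 of 5 filters (log2 0.21 to 0.65) and higher in cry1cry2 than in Ler under 5 of 5 (log2 0.43 to 0.65), with the same Ler libraries on both sides. Xylem markers moved with the UV0 contrast, with 3 of 7 higher and sums of 126.7 to 136.2 CPM in cry1cry2, against 96.8 to 98.2 CPM in Ler. Under UVA350, 0 of 7 xylem markers were called and 1 of 5 leaf markers was lower, under UVA 1 of 4 epidermis markers was higher, and under blue0 2 of 5 leaf markers were higher. Their part in the result was not tested.

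Per coding length, the make-up of the 4CL family shifted more than that of the PAL family. These shares are of the summed CPM per kilobase of coding sequence in each library, since CPM alone cannot be compared between genes of different length. The estimated counts cover the whole transcript, so the coding length is an approximation of the length that was counted. 4CL3 made up 38.7% and 34.8% of the 4CL level in the uvr8-2 libraries under UVA+B, 57.4% and 61.1% in those of cry1cry2 and 63.7% and 69.7% in those of Ler. Under blue0 the 4CL3 shares were 7.81% and 8.89% in uvr8-2, 5.95% and 6.59% in cry1cry2 and 6.63% and 8.59% in Ler. So 4CL3, a minor ligase transcript under blue0, was the major one under UVA+B in cry1cry2 and Ler, where 4CL1 had 40.3% and 36.6% and 33.9% and 28.1%. In uvr8-2 under UVA+B 4CL1 remained the major one at 55.7% and 58.8%. Under UV0 the 4CL3 share was 33.8% and 30.2% in uvr8-2, 8.71% and 13.2% in cry1cry2 and 22.9% and 28.2% in Ler.

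Among the PAL genes, PAL1 held 63.2% and 65.2% of the summed level per coding length in uvr8-2 under UVA+B, 64.7% and 64.1% in cry1cry2 and 64.0% and 64.6% in Ler. Under blue0, PAL1 held 52.3% and 50.3% in uvr8-2, 43.9% and 43.7% in cry1cry2 and 54.3% and 53.4% in Ler, and PAL3 held 11.3% and 17.1%, 13.8% and 14.8% and 9.47% and 9.99% in the same order. PAL1 and PAL2 were thus the bulk of the family in every group, and PAL3 shrank to 0.269% and 0.349% in Ler under UVA+B. The summed level of each enzyme can be set side by side on this scale, where only means are compared and no test was made. PAL under UVA+B stood at 7.15 times its blue0 level in uvr8-2, 25.5 times in cry1cry2 and 24.1 times in Ler. For C4H the ratios were 3.76 in uvr8-2, 14.1 in cry1cry2 and 12 in Ler, and for 4CL 2.3, 4.88 and 5.72. In the Ler libraries under UVA+B the sums were 1618 and 1617 CPM per coding kb for PAL, 729 and 746 for C4H and 433 and 423 for 4CL.

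**Figure D4:**
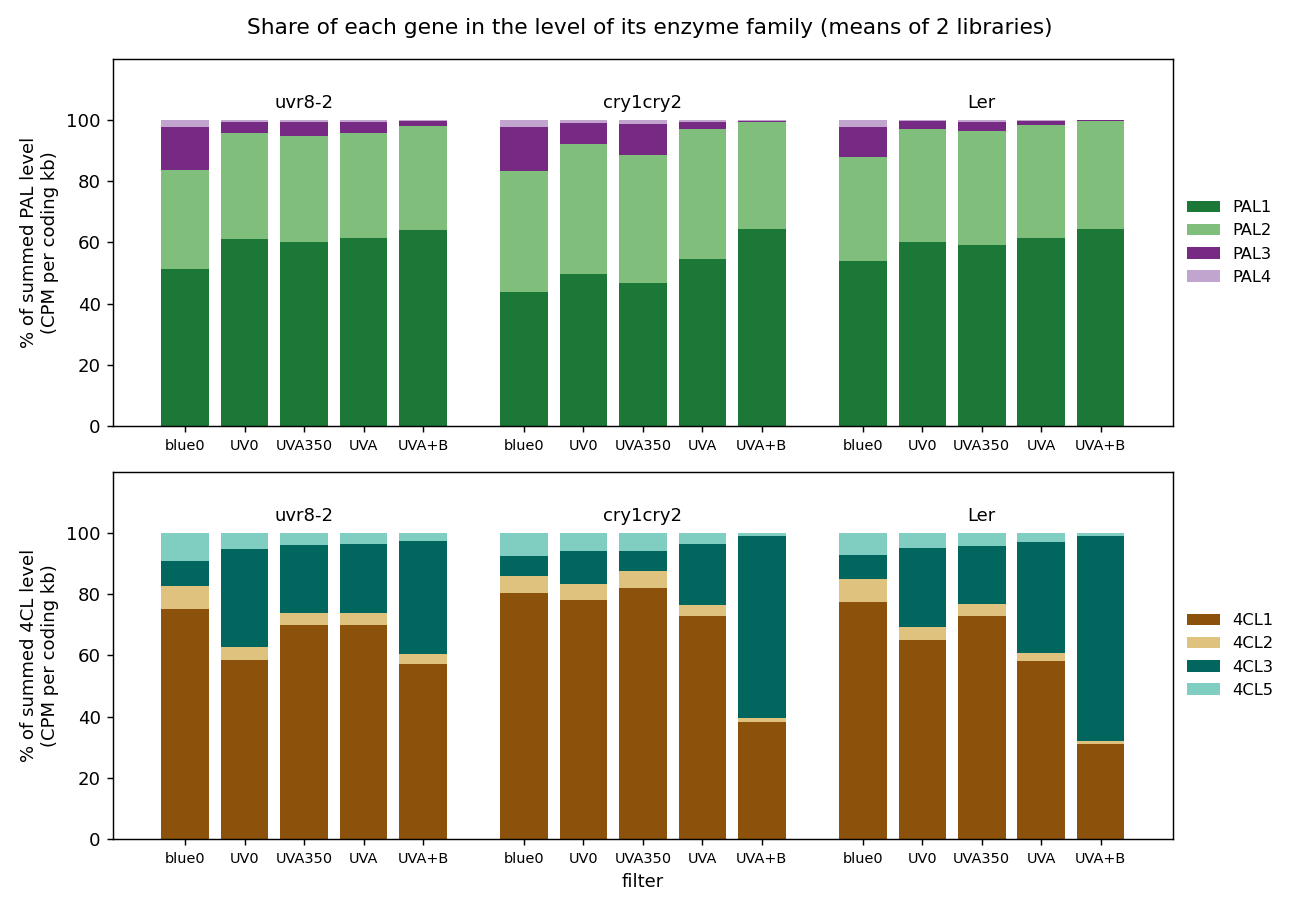
Share of each gene in the summed level (CPM per coding kb) of the PAL family (top) and the 4CL family (bottom), as means of 2 libraries in uvr8-2, cry1cry2 and Ler under the 5 filters. Under UVA+B the 4CL3 share is 59.2% in cry1cry2 and 66.7% in Ler, where that of 4CL1 is at its lowest, and in each genotype the PAL3 share is highest under blue0.

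Other genes of the pathway were read from the same comparisons. The list covers phenylalanine supply, P450 electron donors, the flavonoid branch, the sinapate and monolignol branch, regulators, and the Kelch F-box proteins that mark PAL for degradation, 38 genes of which 37 passed the filter. For total UV, 9 of 37 were called higher and 0 lower in uvr8-2, 28 higher and 4 lower in cry1cry2, and 26 higher and 2 lower in Ler. Of all genes tested, 0.681% were called higher and 0.0901% lower in uvr8-2, 16.3% and 17.8% in cry1cry2, and 9.47% and 8.3% in Ler. The median log2 changes of the list were 0.47 in uvr8-2, 1.41 in cry1cry2 and 1.14 in Ler, against 0.00, -0.03 and 0.00 over all genes tested. In phenylalanine supply, 2 of 9 were called higher in uvr8-2, 7 in cry1cry2 and 6 in Ler. The chorismate mutase gene CM1 rose 2.00-fold in uvr8-2, 7.26-fold in cry1cry2 and 4.00-fold in Ler (2.00 ± 0.17, edgeR adjusted p = 3.98e-08), and ADT4, an arogenate dehydratase gene, 6.90-fold in cry1cry2. All 5 flavonoid genes were called higher in cry1cry2 and Ler and 1 in uvr8-2; CHI, the chalcone isomerase gene, rose 9.67-fold in cry1cry2 and 6.29-fold in Ler (2.65 ± 0.22, edgeR adjusted p = 4.38e-08).

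In the sinapate and monolignol branch, 4 of 10 were called higher in uvr8-2, 8 in cry1cry2 and 7 in Ler for total UV. C3H1, the p-coumaroyl ester hydroxylase gene, rose 1.69-fold in uvr8-2 (0.75 ± 0.09, edgeR adjusted p = 0.000369) and 2.23-fold in Ler. CSE, the caffeoyl shikimate esterase gene, rose 1.48-fold in uvr8-2, 2.70-fold in cry1cry2 and 2.21-fold in Ler, and CAD4, a cinnamyl alcohol dehydrogenase gene, 2.68-fold in uvr8-2. Among the 7 regulators, 2 were called higher in uvr8-2 and 7 in cry1cry2 and in Ler; the list holds HY5 and the flavonol activators MYB11, MYB12 and MYB111 along with the repressors MYB4, MYB7 and MYB32. The 3 electron donors split. The P450 reductase gene ATR2 rose 3.23-fold in cry1cry2 and 2.33-fold in Ler, while its relative ATR1 (0.790-fold and 0.828-fold) and the cytochrome b5 gene CB5D (0.594-fold and 0.696-fold) fell. None of the 3 was called in uvr8-2. These 3 genes were named after their values were seen.

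For the F-box genes, 3 of 4 passed the filter. For total UV KFB01 and KFB20 were lower in cry1cry2, and 0 of 3 were called in uvr8-2 or Ler. Against Ler, cry1cry2 had more KFB20 transcript under UVA350, 10.8 ± 1.20 CPM in cry1cry2 and 1.96 ± 0.120 CPM in Ler (SD, n = 2 each; log2 2.46 ± 0.34, edgeR adjusted p = 8.54e-05), and under UV0 (3.73-fold). KFB50 was called higher with it under both filters. KFB01 and KFB50 were named after their values were seen. In the same UVA350 contrast, 13 of 37 pathway genes were called lower and 2 higher, with CSE at 0.638-fold, CM1 at 0.482-fold and CHS, the chalcone synthase gene, at 0.294-fold. Of all genes, 4.82% were called lower and 4.78% higher there. Under UVA+B, 23 of 37 were called lower and 1 higher in uvr8-2 relative to Ler, with CHI at 0.316-fold, CSE at 0.614-fold, FAH1, the ferulate 5-hydroxylase gene, at 0.474-fold and C3H1 at 0.629-fold. The shares of all genes in that contrast were 8.4% lower and 6.79% higher. In the difference of the total UV response, uvr8-2 minus Ler, 0.556% of all genes were called lower and 0.11% higher. Of the 37 pathway genes, 9 were called lower and 0 higher. Leading these were ADT5 (-1.13 ± 0.19) and ADT4 (-1.40 ± 0.25), both arogenate dehydratase genes, CHI (-1.61 ± 0.29) and the flavonoid 3′-hydroxylase gene F3'H (-2.20 ± 0.42, edgeR adjusted p = 0.0155).

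Over the 15 group means of log2 CPM, which share libraries and genotypes, Pearson's r described how alike the members ran. It was 0.97 to 0.99 among PAL1, PAL2, C4H and 4CL3, and 4CL1 followed them at 0.87 to 0.95. PAL4 had 0.66 to 0.81 with the 4, PAL3 -0.61 to -0.52, 4CL5 -0.74 to -0.67 and 4CL2 -0.04 to -0.01. The 3 genes most like each member were taken from all genes with a mean of at least 5 CPM. For PAL1 they were ERD9 (0.997), TT5 (0.995), which is the gene listed above as CHI, and AT4G03020 (0.994). PAL2 had ABCI20 (0.991), PAL1 (0.99) and the flavonol regulator gene MYB12 (0.989). C4H had ADT4 (0.993), AT5G62210 (0.992) and DTX35 (0.992), and 4CL3 had CHIL (0.995), TT5 (0.994) and AT1G06000 (0.994). 4CL1 had DUF5 (0.988), DG1 (0.985) and emb2738 (0.984). For PAL3 the values were 0.958 (AT4G34560), 0.926 (KICP-02) and 0.916 (AT3G53380), for PAL4 0.959 (CYP96A1), 0.933 (EMB1968) and 0.93 (SDH2-1), and for 4CL5 0.865 (GATL6), 0.859 (AT5G52810) and 0.858 (NPGR1). 4CL2 found no close partner, with 0.687 (VFB1), 0.656 (AT3G59470) and 0.637 (AT1G64620). Over the 30 single libraries r stayed at 0.976 or above for the partners of PAL1, PAL2, C4H and 4CL3, and dropped to 0.124 to 0.511 for those of 4CL2. It was lower there for the partners of the other genes too. The values were 0.746 to 0.877 for 4CL1, 0.819 to 0.862 for PAL3, 0.654 to 0.822 for PAL4 and 0.513 to 0.701 for 4CL5.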

How the data were processed

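Whole-rosette RNA was sequenced from 30 libraries in 15 groups of 2, prepared with a stranded mRNA kit per the labels' protocols. Reads were checked with FastQC, trimmed with Trimmomatic 0.33 and quantified with kallisto, per the submitters' processing notes, and the authors deposited estimated counts per locus; the genome build is not given in the sources used here. Library totals ran from 12109222 to 22865826, and no interval on single counts was computed.

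Counts were rounded to integers, filtered by group with filterByExpr (19980 of 34212 loci kept) and scaled by TMM (factors 0.927 to 1.11). One edgeR 4.0.16 quasi-likelihood model (R 4.3.3, robust, 15 residual degrees of freedom, common coefficient of biological variation 0.125) held a coefficient for each group, and 39 comparisons were read from it with Benjamini-Hochberg adjustment over all genes tested. Counts for 19741 genes were simulated with 66, 65 and 67 genes changed 1.5-fold, 2-fold and 4-fold in Ler under UVA+B alone. Every other gene had the same mean in all groups, and no variation shared by replicate number was put in. The UV-B step in Ler recovered 22.7% of 1.5-fold, 67.7% of 2-fold and 83.6% of 4-fold changes. For the difference in total UV, uvr8-2 minus Ler, the shares were 6.06%, 41.5% and 74.6%. Recovery in the real data, where more genes changed, was not tested. Coding lengths, coding identity (in place of the planned protein identity) and the 300 base windows came from the RefSeq TAIR10.1 genome, read with Biopython 1.88. The members and the gene lists were chosen with earlier results of these data known.

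All 9 members are named in each comparison described, some by their range (over 3 genotypes, those called and a few more). Of the pathway list, the rule was to name at most the 4 genes of smallest adjusted p per comparison. Electron donor and F-box genes were also named outside that rule. For likeness, the 3 genes of highest r among genes with a mean of at least 5 CPM (prior count 2) are named. Alternatives were DESeq2 1.42.0 and its size factors in edgeR, no filter, unrounded counts, the replicate number as a block, leaving out the 3 libraries over 1% chloroplast counts, and leaving out each library in turn.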

Additional observations from a re-analysis of the deposited data

Results flagged for a closer look

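The responses of 4 genes to total UV, UVA+B against UV0, differed between genotypes by a test of the difference itself, uvr8-2 minus Ler. On the log2 scale the difference was -2.25 for 4CL3, -1.77 for PAL1, -1.71 for PAL2 and -1.65 for C4H. The edgeR adjusted p-values were 0.003, 0.0269, 0.0248 and 0.00766. The calls of PAL1 and PAL2 were lost in most fits without 1 library, as given above. Both were also lost in edgeR with no filter on low counts (adjusted p = 0.0614 and 0.0581). For each of these genes the 2 uvr8-2 libraries under UVA+B lay below both Ler libraries under that filter. With 2 libraries a group, single libraries that stand apart within a group were not looked for.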

How the results depend on the processing

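No direction of a called member reversed in any alternative run. The alternative runs were read for the members only, so no share of all genes stands beside their counts. Of 78 values of called members, 75 kept their call with DESeq2's size factors in edgeR and 75 in DESeq2, 65 with no filter, 77 with unrounded counts and 72 without the 3 libraries over 1% chloroplast counts. In fits without 1 library of the comparison, 341 of 456 values kept their call. The cause of these losses was not tested. Each such fit has fewer samples and also lacks the values of the library left out. In the simulation, with few changed genes and no shared replicate variation, 2-fold changes were recovered in 67.7% of cases for UV-B in Ler. For the difference in total UV, uvr8-2 minus Ler, 41.5% were recovered. Changes of 1.5-fold were recovered in 22.7% and 6.06% of cases in these comparisons. Recovery in the real data, also with 2 libraries a group, was not tested. PAL4, with a lowest count of 29.0, is the least precise member.

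The replicate number used as a block ended none of the 78 calls. In the main model equal numbers were not treated as pairs. Correlations of the deviations within groups, over 105 pairs of groups, ran from 0.0261 to 0.435 (median 0.178), and all 105 were above 0. Whether equal numbers mark a shared source of variation was not tested. The block gave 2 members called for the blue step in cry1cry2, against 0 without it, 4 against 1 for total UV in uvr8-2, 4 against 2 for uvr8-2 minus Ler under UVA, 2 against 1 for cry1cry2 minus Ler under UVA, 1 against 0 for uvr8-2 minus Ler under UVA350 and 1 against 0 for cry1cry2 minus Ler under blue0. At the UV-B step the block added PAL4 in Ler (edgeR adjusted p = 0.0162) and PAL3 (0.0122) and 4CL5 (0.0375), both lower, in cry1cry2; over 3 genotypes it added PAL3 (0.011) and 4CL5 (0.0434), both lower. It also added 4CL1 for the short UV-A step in cry1cry2 (0.0023) and, lower, for uvr8-2 minus Ler under UVA+B (0.0374).

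DESeq2 called 3 members for the UV-B step in uvr8-2 (edgeR 0), 3 for the blue step in cry1cry2 (0), 4 for total UV in uvr8-2 (1), 4 for uvr8-2 minus Ler under UVA (2), and 1 each (0) for the differences in the short UV-A step of uvr8-2, the blue step of cry1cry2 and total UV of cry1cry2. With no filter the counts were 2 for the short UV-A step in Ler (4), 0 for total UV in uvr8-2 (1), 2 for the difference in total UV of uvr8-2 (4), 0 for uvr8-2 minus Ler under UVA (2) and 3 for cry1cry2 minus Ler under UVA350 (5). Without the libraries rich in chloroplast counts they were 1 for the blue step in cry1cry2 (0), 3 for total UV in uvr8-2 (1), 1 for uvr8-2 minus Ler under UVA (2) and 0 for cry1cry2 minus Ler under UVA (1). The 4CL3 call of the long UV-A step over 3 genotypes gave 0 with DESeq2's size factors, no filter, unrounded counts and without those libraries. Of the 27 most similar genes, 5 stayed with Spearman's rho and 10 over 30 libraries.

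Leaving out 1 library gave 3 to 4 called members in Ler for UV-B, 0 to 4 for the short UV-A step in Ler and 4 to 5 in cry1cry2, 4 for the blue step in Ler and 0 to 1 in cry1cry2. For total UV it gave 4 to 6 in Ler, 0 in uvr8-2, 5 to 6 in cry1cry2 and 1 to 4 for the difference of uvr8-2. Over 3 genotypes it gave 4 to 6 for UV-B, 4 to 5 for short UV-A and 0 to 1 for long UV-A. Mutant minus Ler gave 4 to 5 under UVA+B and 0 under UVA for uvr8-2, and 0 to 1 under UVA, 2 to 4 under UVA350 and 1 to 2 under UV0 for cry1cry2.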
